A study of Mus musculus with 4 samples.

Results

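The genes described here encode the SR proteins, the heterogeneous nuclear ribonucleoproteins (hnRNPs), the RNA-binding motif (RBM) proteins and a set of SR-related, muscleblind and cleavage factor genes, all of which bind RNA in the nucleus. Members were taken by symbol from the annotation of the array. They were the genes whose symbol is Srsf or Rbm followed directly by a number, and those whose symbol starts with Hnrnp. Added to these were Srrm1, Srrm2, Tra2a, Tra2b, Prpf38b, Mbnl1, Mbnl2, Cpsf6, Son, Luc7l2 and Luc7l3. The members came to 76 of the 18193 genes measured, and to 243 of the 34945 probe sets that name 1 gene. By role they were 10 SR proteins with 33 probe sets, 8 SR-related and nuclear speckle genes with 43, 19 hnRNPs with 58, 36 RBM genes with 95, and Mbnl1, Mbnl2 and Cpsf6 with 14. The RBM genes included the antisense transcripts Rbm3os and Rbm46os, which match by symbol only. A further 17 probe sets name a member together with another gene and were not used.

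RNA came from chondrocytes released by collagenase from the rib cartilage of 5-day-old C57BL6/J mice, and 4 genotypes were hybridised to 1 Affymetrix array each. Wild type mice carried intact Xbp1 and Matn3. XBP1 null mice (Xbp1 Col2CreΔex2) lacked exon 2 of Xbp1 in cells with Cre driven by the Col2a1 promoter, so that non-cartilage cells in a sample kept the gene. Matn3 mutant mice had intact Xbp1 and were homozygous for Matn3 V194D, the knock-in that models the dwarfism EDM5, and double mutant mice carried both changes. Each array held a pool of RNA from 3 extractions, so the 4 arrays give no spread between animals and no pairwise difference below has a replicate check.

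Pre-mRNA splicing is carried out by the spliceosome, and the choice of exons is set largely by proteins that bind short sequences beside the splice sites. SR proteins carry arginine-serine repeats and mostly favour inclusion of the exon they bind, whereas many hnRNPs oppose it, and RBM, MBNL and LUC7-like proteins act at particular sites or with particular small nuclear ribonucleoproteins. Genes for such factors are themselves spliced into many transcripts, including ones that retain introns or that carry an early stop codon, so that probe sets of 1 gene can read different transcripts. XBP1 is the transcription factor made when IRE1 cuts an intron out of its mRNA during endoplasmic reticulum stress, a reaction that does not use the spliceosome.

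The 4 arrays had median signals of 43.8 each, to 3 digits. The most intense Xbp1 probe set read 8183 in wild type and 11403 in Matn3 mutant chondrocytes against 7877 in XBP1 null and 9548 in double mutant ones; where its probes lie relative to the deleted exon was not known here, so these values do not check the deletion. All 15 chondrocyte markers were measured and their summed signal ranged from 162847 to 189337, with none under a signal of 1. The summed signal of 10 endothelial markers was 96.9 in wild type and 3602 in XBP1 null chondrocytes, against 822 in double mutant and 501 in Matn3 mutant ones, and 2 of them were under a signal of 1 in wild type. The 6 osteoblast markers measured summed to between 16962 and 22199.8, and the 9 fibroblast and perichondrium markers to between 53744 and 78966, with the highest sum of each in XBP1 null chondrocytes. Skeletal muscle markers (12) summed to between 2059 and 3255, leukocyte markers (7 measured) to between 557 and 808, and erythroid markers (4 measured) to between 12.0 and 196. The muscle sum was 2647 in XBP1 null and 3255 in wild type chondrocytes. Yet 8 of the 12 muscle markers were over 1.5-fold higher and 0 lower in that comparison, where 23.3% of all genes were higher. In double mutant against Matn3 mutant chondrocytes 8 were again higher and 0 lower, where 17.4% of all genes were higher. The part of other cell types in the differences below was not tested, and in pooled RNA a smaller share of one cell type cannot be told apart from less RNA per cell.

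Within a gene, the probe set whose log2 signal averaged highest over all 4 arrays is called the brightest and the others dimmer; 56 genes had more than 1 probe set, up to 12 for Rbm39, giving 167 dimmer probe sets. Differences are log2 differences in signal between 2 arrays, after signals under 1 were set to 1, and a feature is called higher or lower when it passed 1.5-fold. Signal only sorts the probe sets of a gene here, and a higher signal of one than of another is not read as more transcript, since probes differ in affinity. Where 4 signals are given without names, the first 2 are wild type and Matn3 mutant (Xbp1 intact) and the last 2 are XBP1 null and double mutant (Xbp1 deleted). Of the member genes, 90.8% had a brightest probe set at or above the median of the array, against 60.4% of all genes.

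On the brightest probe set, few of the 76 genes passed 1.5-fold. Between Matn3 mutant and wild type chondrocytes 6 genes were higher and 1 lower, against 21.2% and 19.3% of all genes. Between XBP1 null and wild type chondrocytes 6 were higher and 2 lower, against 23.3% and 11.5%. Between double mutant and Matn3 mutant chondrocytes none was higher and 1 lower, against 17.4% and 9.03%, and between double mutant and XBP1 null chondrocytes 4 were higher and 3 lower, against 16.6% and 16.9%. In each of the 4 comparisons the members thus passed the threshold in a smaller share than all genes did. Among genes at or above the median signal, which leaves 69 members, 6, 6, 0 and 4 members passed in either direction in the same order of comparisons, where 30.8%, 24.6%, 14.9% and 17.8% of all such genes did.

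Median log2 differences of the brightest probe sets were small in every comparison. They were 0.14 for Matn3 mutant against wild type, 0.12 for XBP1 null against wild type, 0.01 for double mutant against Matn3 mutant and -0.0009 for double mutant against XBP1 null, where the medians of all genes were 0.00, 0.09, 0.15 and 0.00. After quantile normalization the XBP1 null and double mutant medians turned to -0.04 against wild type and -0.11 against Matn3 mutant, so no direction is given for the members as a whole. The same holds for separation of the arrays. Both XBP1 null arrays (XBP1 null and double mutant) lay above both arrays with intact Xbp1 for 15 genes, against 21.6% of all genes, and below for 6, against 5.18%, but after quantile normalization the counts were 3 above and 16 below.

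**Figure D1:**
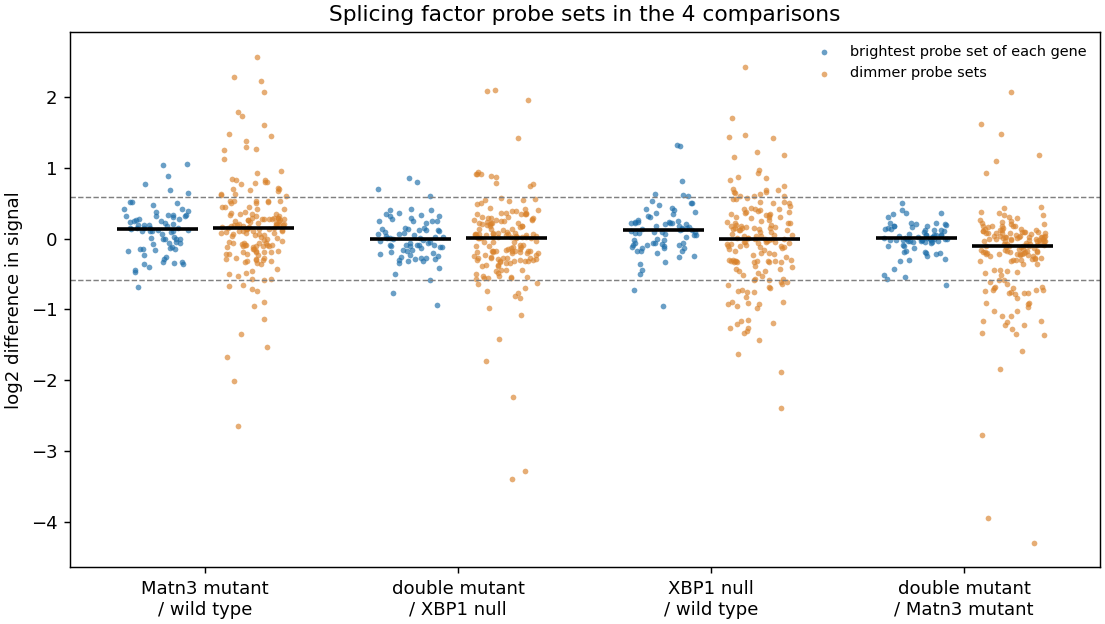
Log2 difference in signal for every splicing factor probe set in the 4 comparisons, with the 76 brightest probe sets in blue and the 167 dimmer ones in orange; the median of each set is a black bar and 1.5-fold a dashed line. Brightest probe sets stay mostly between the lines, while dimmer ones spread further and reach -4.30 in double mutant against Matn3 mutant chondrocytes.

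SR proteins bind exonic enhancers and help place the spliceosome on the neighbouring splice sites. Among the 10 SR protein genes 1, Srsf12, passed 1.5-fold on its brightest probe set in any comparison, between double mutant and XBP1 null chondrocytes. Its signal was 112 in wild type and 108 in Matn3 mutant chondrocytes against 82.8 in XBP1 null and 125 in double mutant ones. It was thus lowest in XBP1 null and highest in double mutant chondrocytes, 1.51-fold apart. Srsf5 gave signals of 4985 in wild type and 6638 in Matn3 mutant chondrocytes against 5164 in XBP1 null and 6887 in double mutant ones, so that both Matn3 mutant arrays (Matn3 mutant and double mutant) lay above both others, by 1.33-fold and 1.33-fold. Srsf4, with 1655 in wild type and 1302 in Matn3 mutant chondrocytes against 1589.8 in XBP1 null and 1429.5 in double mutant ones, lay the other way. Srsf3, the smallest SR protein and also a factor in RNA export, was highest in XBP1 null chondrocytes (4304, 4631, 5371 and 4815), and Srsf9 was highest in double mutant chondrocytes (3345, 3219, 3541 and 4117); neither reached 1.5-fold.

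The hnRNPs package nascent RNA, and several of them silence exons. None of the 19 hnRNP genes passed 1.5-fold on the brightest probe set in any of the 4 comparisons. Hnrnpdl, a relative of the AU-rich element binding protein HNRNPD, gave signals of 9101 in wild type and 9519 in Matn3 mutant chondrocytes against 9239 in XBP1 null and 9426 in double mutant ones, in which Matn3 mutant, the highest array, lay 1.05-fold above wild type, the lowest. Hnrnph1, which binds G-rich tracts, had 8338, 9543, 9442 and 9204 in the same order. Hnrnpc, which binds uridine tracts, had 6894, 8550.0, 8093 and 8459. The wild type array was the lowest of the 4 for both. Hnrnpk, a protein with KH domains that binds cytosine-rich RNA, gave signals of 4774 in wild type and 6256 in Matn3 mutant chondrocytes against 6466 in XBP1 null and 7089 in double mutant ones, all 3 other arrays lying above wild type. Hnrnph3 was highest in wild type at 2056 and lowest in double mutant chondrocytes at 1423. Both XBP1 null arrays lay above both others for 8 of the 19 genes and below for none, against 21.6% and 5.18% of all genes. After quantile normalization the counts were 1 above and 2 below, so no direction is given for the hnRNPs.

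The largest differences on brightest probe sets were among the 36 RBM genes, which held all 6 genes higher in Matn3 mutant and 5 of the 6 genes higher in XBP1 null chondrocytes. These were 16.7% and 13.9% of the RBM genes, under the 21.2% and 23.3% of all genes. Rbm27, a zinc finger protein linked to RNA decay in the nucleus, gave signals of 526 in wild type and 847 in Matn3 mutant chondrocytes against 1318 in XBP1 null and 774 in double mutant ones. It was lowest in wild type and highest in XBP1 null chondrocytes, 2.51-fold apart, and the Matn3 mutation went with a 1.61-fold higher signal where Xbp1 was intact and a 1.7-fold lower signal where it was deleted. A dimmer probe set of Rbm27, 1458748_at, did not repeat this, with 88.2, 99.6, 82.1 and 60.4. There XBP1 null lay 1.07-fold below wild type. Rbm45 had 489, 523, 742 and 389, like the brightest probe set of Rbm27 highest in XBP1 null chondrocytes, with double mutant lowest. Rbm39, a relative of the splicing factor U2AF, gave signals of 3444 in wild type and 5861 in Matn3 mutant chondrocytes against 4609.5 in XBP1 null and 6097 in double mutant ones. It was lowest in wild type and highest in double mutant chondrocytes, and Matn3 mutant stood 1.7-fold above wild type. Rbm12 had 963, 1381, 1489 and 1362, with the wild type array apart from 3 arrays that lay close together, and Rbm34 had 251, 392, 364 and 343, with wild type again lowest.

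Rbm20, Rbm47, Rbm24 and Rbm46, whose known roles are tissue-restricted, gave signals between 17.8 and 64.1 on the brightest probe set, around the array median. Rbm20, the regulator of titin splicing in heart, gave signals of 25.7 in wild type and 53 in Matn3 mutant chondrocytes against 64.1 in XBP1 null and 60.3 in double mutant ones, so that all 3 mutant arrays lay at least 2.06-fold above wild type. Rbm47, known from epithelial cells and as a cofactor of APOBEC1, was likewise lowest in wild type with 34, 62.5, 59.7 and 62.2. Rbm24, a muscle splicing factor, had 18.9, 39.4, 24.2 and 39.4 and was higher with the Matn3 mutation by 2.08-fold with Xbp1 intact and 1.62-fold with Xbp1 deleted, the only gene past 1.5-fold in both Matn3 pairs on its brightest probe set, against 7.49% of all genes; no gene was lower in both, against 5.47%. Rbm46, a germ cell factor, had 37.1, 28.1, 19.2 and 17.8 and was lower by 1.94-fold and 1.58-fold in the XBP1 pairs. It was the only gene called lower in both XBP1 pairs on its brightest probe set, against 1.8% of all genes, and none was called higher in both, against 4.65%. The dimmer probe set of Rbm46, 1443437_at, had 33.3, 10.4, 23.1 and 22.2. That probe set was 1.445-fold lower in XBP1 null against wild type but 2.13-fold higher in double mutant against Matn3 mutant chondrocytes. Signals of Rbm24 and Rbm46 lay under the array median, where 7 of the 76 genes had their brightest probe set. Rbm12b1 and Rbm12b2 had both XBP1 null arrays below both others, with signals of 306, 291, 243 and 203 and of 155, 201, 137 and 138.

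Among the SR-related and nuclear speckle genes no brightest probe set of the 8 passed 1.5-fold in any comparison. Tra2b, an activator that binds GAA-rich exons, came closest, with readings of 5533 in wild type and 6613 in Matn3 mutant chondrocytes against 7822 in XBP1 null and 6467 in double mutant ones. It was highest in XBP1 null chondrocytes, 1.41-fold above wild type. Son, the scaffold of nuclear speckles, had 5537, 5076, 5829 and 4992, and Srrm2, another large speckle protein, had 5111, 4056, 4325 and 4127 with wild type highest. Luc7l2, which associates with the U1 small nuclear ribonucleoprotein, had 2464, 2652, 2328 and 2564 and Luc7l3 had 1645, 2058, 1774 and 1658, so that Luc7l3 was highest in Matn3 mutant chondrocytes. In the muscleblind and cleavage factor group, Mbnl2 gave signals of 4121 in wild type and 5831 in Matn3 mutant chondrocytes against 6320.4 in XBP1 null and 5580.2 in double mutant ones. Its wild type array was the lowest, and XBP1 null lay 1.53-fold above it. Mbnl1, the protein sequestered by CUG repeats in myotonic dystrophy, had 8529, 7681, 8180.1 and 8872, and Cpsf6, a subunit of cleavage factor I that affects poly(A) site choice, had 1394, 1548, 1519.9 and 1692, both within 1.5-fold.

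The dimmer probe sets of the same genes passed 1.5-fold more often than the brightest ones did. Between XBP1 null and wild type chondrocytes 24 of 167 were higher and 32 lower, against 20.8% and 19% of all dimmer probe sets. These were 14.4% and 19.2% of the members' dimmer probe sets, so the share lower was at the background and the share higher under it. Between double mutant and Matn3 mutant chondrocytes 6 were higher and 38 lower, against 14.8% and 16.2%. Lower calls thus outnumbered higher calls in the pair on the mutant Matn3 background, where the lower calls were 22.8% of the members' probe sets. Without 8 genes that the publication had already listed, named below, 18 of 135 (13.3%) were lower in that pair, under the 16.2%. In XBP1 null against wild type chondrocytes 14 of these 135 (10.4%) were lower, under the 19%. With the Matn3 mutation the counts were 32 higher and 12 lower against wild type, where the background was 20.4% and 21.2%, and 13 higher and 14 lower in double mutant against XBP1 null chondrocytes, where it was 17.2% and 20%. In 26 of the 56 genes with more than 1 probe set, the brightest stayed within 1.5-fold in XBP1 null against wild type chondrocytes while a dimmer one passed it, and in double mutant against Matn3 mutant chondrocytes the number was 25. Among all 9010 such genes the shares were 32.6% and 33.4%, beside 46.4% and 44.6% of the members, which averaged 2.98 dimmer probe sets a gene where all such genes averaged 1.86. The gap between a dimmer probe set and the brightest of its gene had a median of -0.10 and -0.11 (log2) in these pairs, near the -0.10 and -0.08 of all genes.

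XBP1 null against wild type and double mutant against Matn3 mutant share no array, so a probe set can be followed in both. Of the dimmer probe sets 23 of 167 (13.8%) were lower in both, from 12 genes, against 5.77% of all dimmer probe sets, and 3 were higher in both, against 4.03%. All 3 of those higher lay under the array median. Among dimmer probe sets at or above the median signal, 18 of 137 (13.1%) were lower in both, against 3.71%. That share includes genes already listed in the publication, named in the next paragraph. Outside those genes the 18 held only 1443988_at of Rbm39, 1439095_at of Srsf11 and 1441466_at of Tra2b. The 13.1% is therefore not independent evidence, and the share was not taken without the listed genes. Both XBP1 null arrays lay below both others for 50 of 167 (29.9%), against 12.8%, and above for 20, against 15.9%, and after quantile normalization for 68 and 8. In all 12 genes the brightest probe set stayed within 1.5-fold in both pairs, with log2 differences from -0.24 to 0.50 and from -0.21 to 0.21.

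Cpsf6, Mbnl1, Prpf38b, Rbm25, Rbm5, Srrm1, Srrm2 and Tra2a had already been listed for these arrays in the publication that goes with them, so they are not independent evidence of the direction. It names 7 of them under RNA splicing and lists Srrm1 elsewhere. They held 17 of the 23 probe sets lower in both pairs, out of 32 dimmer ones. Without these 8 genes 6 of 135 (4.44%) were lower in both, and with Srrm1 kept 8 of 141 (5.67%), beside the 5.77% of all dimmer probe sets. Both XBP1 null arrays lay below both others for 31 (23%) and 34 (24.1%) of these. By role, 13 of the 23 were among the 35 dimmer probe sets of the SR-related and speckle genes, 6 among the 59 of RBM genes, 3 among the 11 of Mbnl1, Mbnl2 and Cpsf6, 1 among the 23 of SR proteins and none among the 39 of hnRNPs. The SR-related and speckle group had median log2 differences of -0.39 and -0.47 over its dimmer probe sets in the 2 pairs, and -0.48 and -0.40 after quantile normalization, while its brightest probe sets had 0.03 and -0.03. Of the listed genes this group includes Prpf38b, Srrm1, Srrm2 and Tra2a, which held 2, 2, 1 and 4 of its 13. The counts by role and these medians were not taken without the listed genes, so they are not independent evidence either.

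**Figure D2:**
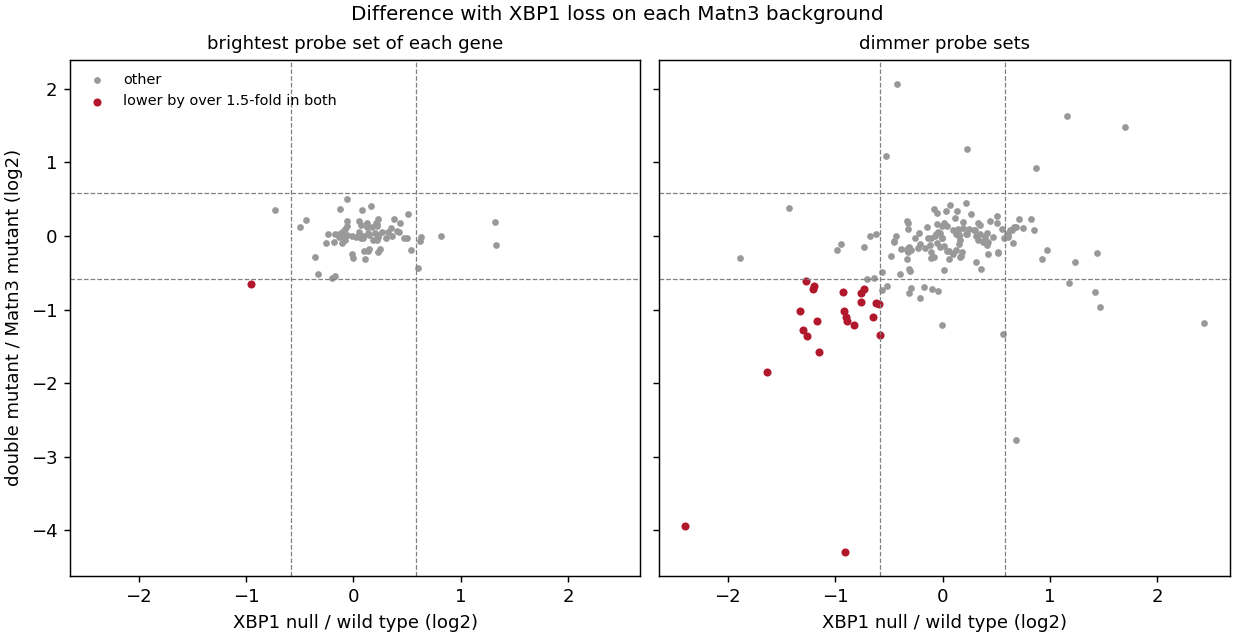
Log2 difference of XBP1 null against wild type (horizontal) and of double mutant against Matn3 mutant (vertical) for brightest and dimmer probe sets, with dashed lines at 1.5-fold. The 23 dimmer probe sets lower in both pairs are red in the right panel, and 1 brightest probe set, of Rbm46, is red in the left.

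**Figure D3:**
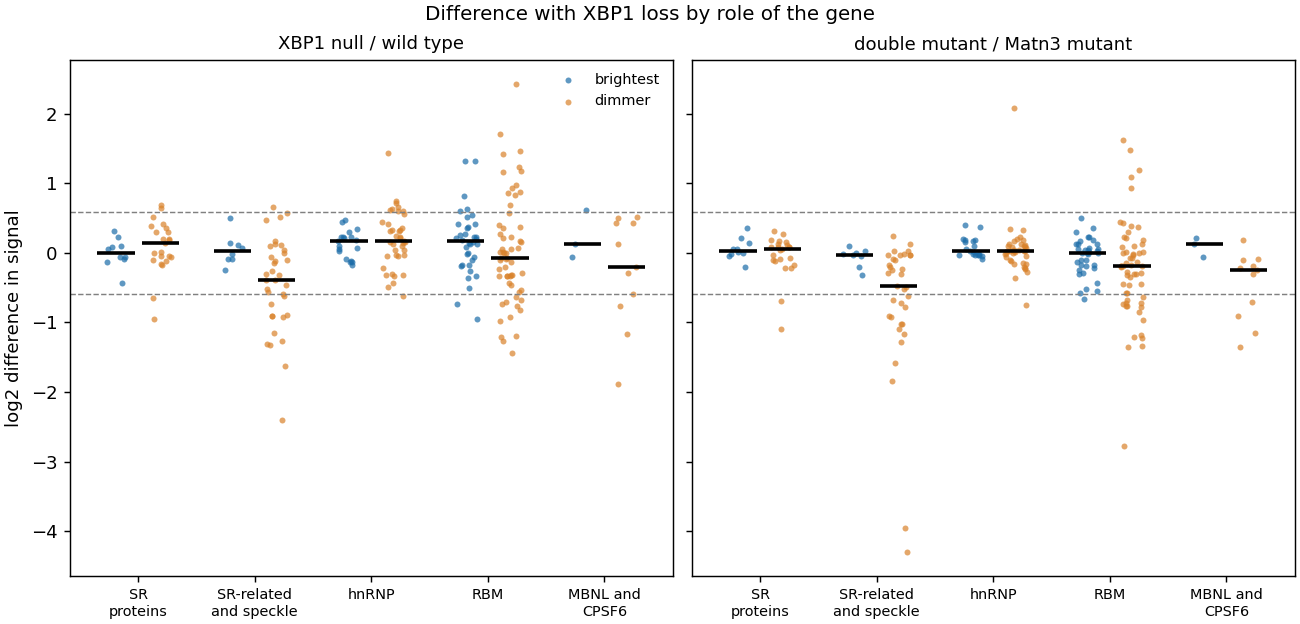
Log2 differences in the 2 XBP1 pairs by role of the gene, brightest probe sets in blue and dimmer in orange, with medians as black bars and 1.5-fold as dashed lines. The dimmer probe sets of SR-related and speckle genes have medians of -0.39 and -0.47, below those of the other groups. That group includes Prpf38b, Srrm1, Srrm2 and Tra2a, which the publication had already listed.

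Tra2a, the paralogue of Tra2b, held 4 of the 23 among its 5 dimmer probe sets. Its brightest probe set (1454725_at) was nearly flat, with readings of 3313 in wild type and 3579.6 in Matn3 mutant chondrocytes against 3280.1 in XBP1 null and 3565 in double mutant ones. Probe set 1442886_at had 1337 in wild type and 801 in Matn3 mutant chondrocytes against 706 in XBP1 null and 395 in double mutant ones, that is 1.89-fold lower with XBP1 loss on the wild type background and 2.03-fold lower on the mutant one. It was also 1.67-fold and 1.79-fold lower with the Matn3 mutation, so wild type was the highest and double mutant the lowest array. The signals of 1429680_at had the same extremes, at 655, 299, 427 and 159 in the same order. Those of 1455933_at were 274, 259.8, 147 and 122, with both arrays of intact Xbp1 above both others and little difference with the Matn3 mutation. The 4 lower probe sets are paired with 4 different sequence accessions. Tra2b showed a similar split. Its second bright probe set followed the brightest with 4525, 5490.4, 6253 and 5443, while 1441466_at had 268, 179.8, 109 and 74.2, 2.47-fold and 2.42-fold lower. The other one called, 1446496_at, was near the floor, at 8.88, 21.4, 1.68 and 1.38.

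Rbm25, which regulates 5' splice site choice, had 3 of its 5 dimmer probe sets lower in both pairs. Probe set 1437862_at gave signals of 1775 in wild type and 1839 in Matn3 mutant chondrocytes against 1049.7 in XBP1 null and 1070.5 in double mutant ones. XBP1 null and double mutant thus lay close together and 1.69-fold and 1.72-fold below their controls, with the Matn3 mutation making little difference. The other dimmer probe sets called repeated this order: 1425522_at with 201, 221, 84 and 86.2 and 1425524_at with 245, 229, 129 and 135. In contrast the brightest probe set had 2096, 1889, 2369.7 and 2058, and 1428907_at and 1428908_at had 1535, 1725, 1546 and 1576 and 1181, 1348, 1123 and 1353, all within 1.5-fold. Since 2 of the 3 lower probe sets are paired with the same sequence accession, they may not be separate readings of different transcripts.

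Prpf38b, a protein found with the spliceosome, had a bright and a dim pair of probe sets. The bright ones had signals of 1627, 1933, 1788 and 1683 and of 1304, 1399.9, 1420.4 and 1432. Of the dim ones, 1455016_at had 106, 99.7, 34.1 and 27.8 and 1456506_at had 113, 58.3, 45.1 and 28.8. Both dim probe sets were lowest in double mutant chondrocytes, and 1455016_at was 3.1-fold and 3.59-fold lower with XBP1 loss. Srrm1, a splicing coactivator of nuclear speckles, had a brightest probe set with 2015, 2243, 1903 and 2405, while 1420935_a_at had 653, 438, 392 and 265. That probe set was 1.66-fold and 1.65-fold lower with XBP1 loss and was also lower with the Matn3 mutation. The probe sets 1450045_at and 1459828_at of Srrm1 lay the other way for the Matn3 mutation, with 147, 279.7, 136 and 227 and 23.2, 70.7, 33.1 and 60.4, over 1.5-fold higher in both Matn3 pairs. For Srrm2, 1437638_at had 548, 486, 295 and 217, against 630.1, 1116, 938 and 1096 for 1427902_at, which was lowest in wild type.

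Mbnl1 had 1 of its 2 dimmer probe sets called: 1440315_at, with readings of 184 in wild type and 234 in Matn3 mutant chondrocytes against 82.1 in XBP1 null and 105 in double mutant ones. It was 2.24-fold and 2.23-fold lower with XBP1 loss, whereas its brightest probe set differed by 1.04-fold and 1.16-fold. Mbnl2 showed a different pattern, in which 1457477_at was high in wild type alone at 699, 242, 189 and 197. Cpsf6 had 2 called, 1437372_at with 187, 188, 125 and 73.6 and 1439188_at with 158, 99.5, 93.2 and 53.2. In both the double mutant array was the lowest. Rbm5, a regulator of apoptosis gene splicing, had 1438069_a_at with 261, 210.2, 147 and 90.5 and 1452187_at with 224, 120.3, 97.9 and 74.9, and its brightest had 2471, 2075, 2293 and 1940.5. Srsf11 had 1439095_at with 88.5, 128, 56.3 and 59.5, the Matn3 mutant array being the highest. The 2 called for Luc7l2 were under the array median, and 1445717_at was at 46.1, 46, 24.5 and 2.34.

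Rbm39 had 12 probe sets and 1 of its 11 dimmer ones called, 1443988_at with readings of 470.5 in wild type and 299 in Matn3 mutant chondrocytes against 204 in XBP1 null and 181 in double mutant ones. Another with both XBP1 null arrays below both others was 1456386_at with 1532, 1755, 985 and 1176. In contrast 1420982_at had 84.3, 290.2, 160.2 and 235 and, like the brightest, was lowest in wild type. The gene therefore had probe sets that were highest and probe sets that were lowest in wild type chondrocytes, and no single direction describes it.

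**Figure D4:**
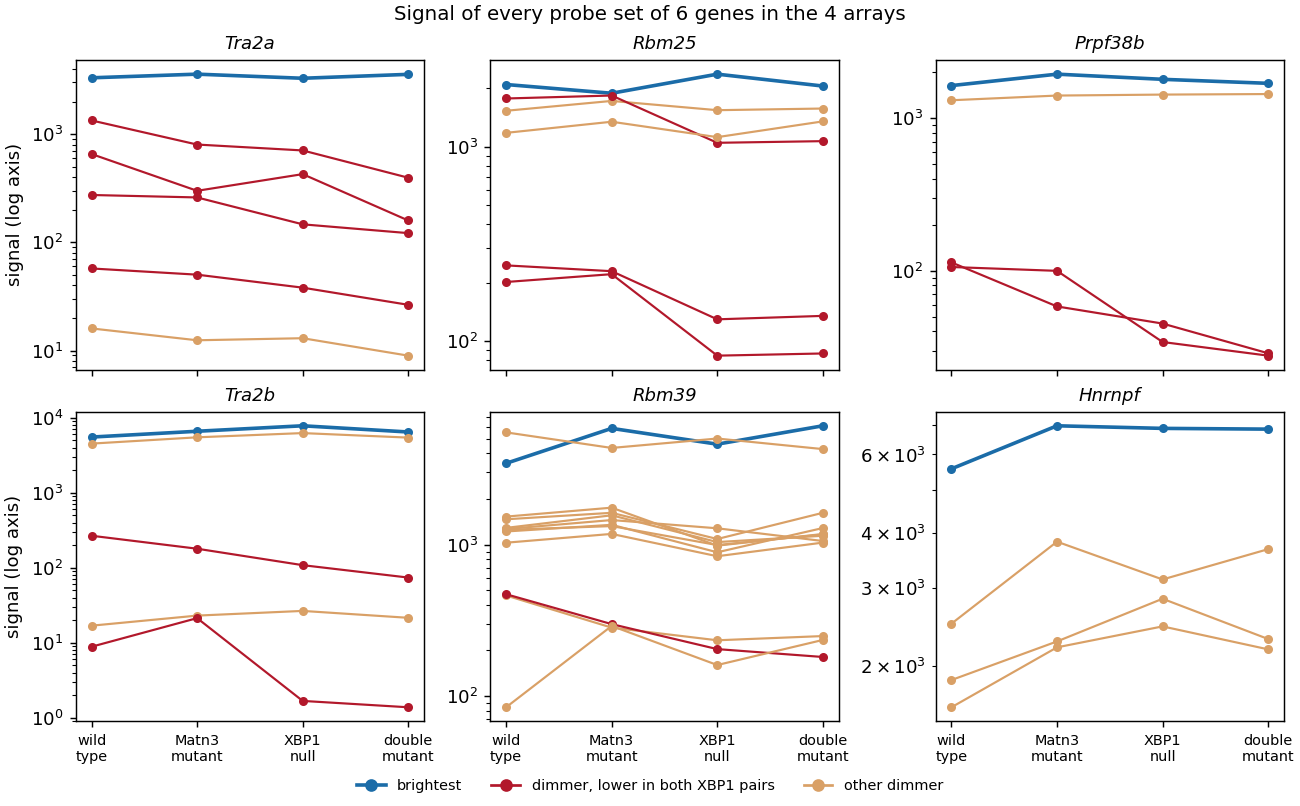
Signal (log axis) of every probe set of Tra2a, Rbm25, Prpf38b, Tra2b, Rbm39 and Hnrnpf in the 4 arrays, with the brightest in blue, the dimmer ones lower in both XBP1 pairs in red and other dimmer ones in tan; lines join the same probe set. Most red lines step down between the Xbp1-intact arrays on the left and the Xbp1-deleted ones on the right, while the blue lines of Tra2a, Rbm25 and Prpf38b stay nearly flat, and Hnrnpf has no red line.

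The positions and sequences of the probes were not used here, so the parts of the transcripts that the dimmer probe sets read are not known. Of the 23 lower in both pairs, 1 is paired with a RefSeq transcript accession, 19 with another accession and 3 with none, whereas of all 167 dimmer ones 18 are paired with a RefSeq accession. None of the 23 is among the 28 dimmer probe sets with the suffix _s_at or _x_at, which marks probes that other sequences may share. The suffix _a_at was not counted here, and 1438069_a_at of Rbm5 and 1420935_a_at of Srrm1, both among the 23, carry it. The brightest probe sets of Hnrnpf, Hnrnpll, Rbm7, Rbm14 and Srsf2 carry _s_at or _x_at, so signal from related sequences cannot be set apart there.

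The bases before the annotated starts (RefSeq, GRCm38.p6) were searched for elements through which XBP1 acts, since the arrays compare cells with and without it. The table held 85 starts of 67 member genes, and the 250 bases before each start were read on both strands. The ER stress response element (CCAAT and CCACG held 9 bases apart) was in 0.113% of the 32851 starts of all genes and in none of the members. Its second form, ATTGGNCCACG, was in 0.0304% of all starts and in 1 of the members, before a start of Rbm39. The element TGACGTGG was in 0.563% of all starts and in none of the members, and GCCACGT, which overlaps it at CCACGT, was in 2.02% and in 4 of 85, before starts of Hnrnpd, Hnrnpf, Rbm15 and Rbm19. The 12 genes with a dimmer probe set lower in both pairs had 16 starts, and that of Rbm39 was their one match. Below are the 250 bases before a start of Rbm39 and of Hnrnpf, which hold a match (in capitals), and of Tra2a and Prpf38b, which hold none and whose dimmer probe sets had large differences. Each reads 5' to 3' on the strand of the gene: Rbm39 at chr2:156180239-156180488 (minus), Hnrnpf at chr6:117907554-117907803 (plus), Tra2a at chr6:49264053-49264302 (minus) and Prpf38b at chr3:108911730-108911979 (minus).
Rbm39: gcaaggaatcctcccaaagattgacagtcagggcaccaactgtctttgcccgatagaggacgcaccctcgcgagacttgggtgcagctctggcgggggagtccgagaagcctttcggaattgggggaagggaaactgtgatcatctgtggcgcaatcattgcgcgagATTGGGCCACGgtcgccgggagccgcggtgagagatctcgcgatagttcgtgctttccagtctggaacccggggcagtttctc
Hnrnpf: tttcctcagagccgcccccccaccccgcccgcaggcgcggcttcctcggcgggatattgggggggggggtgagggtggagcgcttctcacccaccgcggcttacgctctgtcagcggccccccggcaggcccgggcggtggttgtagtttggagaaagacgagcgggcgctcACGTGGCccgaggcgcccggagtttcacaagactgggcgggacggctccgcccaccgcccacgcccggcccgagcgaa
Tra2a: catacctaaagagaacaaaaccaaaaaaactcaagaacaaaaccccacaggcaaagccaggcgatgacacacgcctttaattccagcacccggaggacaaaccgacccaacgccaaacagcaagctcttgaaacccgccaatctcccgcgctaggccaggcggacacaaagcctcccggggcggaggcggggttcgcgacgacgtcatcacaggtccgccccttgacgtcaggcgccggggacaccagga
Prpf38b: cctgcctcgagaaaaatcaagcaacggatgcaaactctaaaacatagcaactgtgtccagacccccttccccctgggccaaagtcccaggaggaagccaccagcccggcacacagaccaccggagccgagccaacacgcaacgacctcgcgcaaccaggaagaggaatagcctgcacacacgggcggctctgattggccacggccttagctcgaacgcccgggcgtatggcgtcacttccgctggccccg

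A match shows only that these letters occur before the start. In Hnrnpf the brightest probe set gave signals of 5569.8 in wild type and 6962 in Matn3 mutant chondrocytes against 6869 in XBP1 null and 6842 in double mutant ones, with wild type the lowest array, and 1423382_a_at and 1450963_at of the same gene had 1863, 2276, 2839.7 and 2305 and 1618, 2207, 2460.4 and 2184. XBP1 null was the highest array for both, 1.52-fold and 1.52-fold above wild type, while double mutant and Matn3 mutant differed by 1.01-fold and 1.01-fold.

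In XBP1 null against wild type chondrocytes, 8 of the 39 dimmer probe sets of hnRNPs were higher (20.5%) and 1 lower (2.56%), where 20.8% and 19% of all dimmer probe sets were. The share higher was thus at the background and the share lower under it; after quantile normalization the counts were 2 higher and 3 lower. Hnrnpu, a nuclear scaffold protein, had 1434391_at with 583 in wild type and 726 in Matn3 mutant chondrocytes against 886 in XBP1 null and 739 in double mutant ones, and XBP1 null was highest. Hnrnpab had 1448144_at with 515, 628, 842 and 735. For Srsf3, 1416151_at had 994, 876, 1597 and 954 and 1416152_a_at had 1461, 1501, 2282 and 1587, which puts XBP1 null apart from 3 arrays that lay close together. In the pair on the mutant Matn3 background 1 dimmer probe set of the hnRNPs was higher and 1 lower.

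For the Matn3 mutation, the 2 pairs that share no array (Matn3 mutant against wild type and double mutant against XBP1 null) held 10 dimmer probe sets higher in both, against 6.96% of all dimmer probe sets, and 5 lower in both, against 7.65%. Those at or above the median signal and higher were 1431113_at of Rbm4b, 1427816_at of Srsf2, 1447898_s_at of Srsf6 and both of Srrm1 given above. Srsf2 at 1427816_at gave signals of 53.2 in wild type and 116 in Matn3 mutant chondrocytes against 75.7 in XBP1 null and 140.3 in double mutant ones, and both Matn3 mutant arrays lay above both others. Srsf6 at 1447898_s_at had 2022, 3119.7, 2035 and 3522 in the same order, again with the Matn3 mutant arrays apart; its suffix marks probes that other sequences may share. The brightest probe sets of Srsf2 and Srsf6 had 3958, 4416, 4610.5 and 4265 and 6389.6, 7030.0, 5824 and 6946, within 1.5-fold. That of Srsf2 carries a suffix of shared probes too. Rbm4b at 1431113_at had 84.7, 152, 72.1 and 135, whereas its brightest probe set was lower in Matn3 mutant chondrocytes, with 185, 115, 131 and 125. Those lower in both were 1442886_at and 1429680_at of Tra2a, 1456506_at of Prpf38b, 1439188_at of Cpsf6 and a probe set of Hnrnpd under the median.

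A model with 1 term for XBP1 loss and 1 for the Matn3 mutation was fitted with limma over all 45037 probe sets, with departure from additivity as the error, on 1 residual degree of freedom. No probe set was called at an adjusted p of 0.05 for either term; the smallest adjusted p was 0.819 for XBP1 loss and 0.635 for the Matn3 mutation. At an unadjusted p under 0.05, 22 of 243 member probe sets (9.05%) passed for XBP1 loss, 20 of them lower, against 4.56% of all probe sets, and 16 (6.58%) for the Matn3 mutation, 7 lower and 9 higher, against 7.51%. Of the 22, 13 belonged to the 8 genes listed in the publication. Without these genes 9 of 203 (4.43%) passed for XBP1 loss, and with Srrm1 kept 11 of 210 (5.24%). The XBP1 term (log2, ± SE) was -0.97 ± 0.09 for 1442886_at of Tra2a, -0.77 ± 0.09 for 1437862_at of Rbm25 and -1.74 ± 0.28 for 1455016_at of Prpf38b. For the brightest probe sets of these genes it was -0.01 ± 0.10, 0.15 ± 0.09 and -0.03 ± 0.15. It was -1.16 ± 0.15 for 1440315_at of Mbnl1 and -1.29 ± 0.15 for 1441466_at of Tra2b, each with an adjusted p of 0.819 by limma with Benjamini-Hochberg adjustment.

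**Figure D5:**
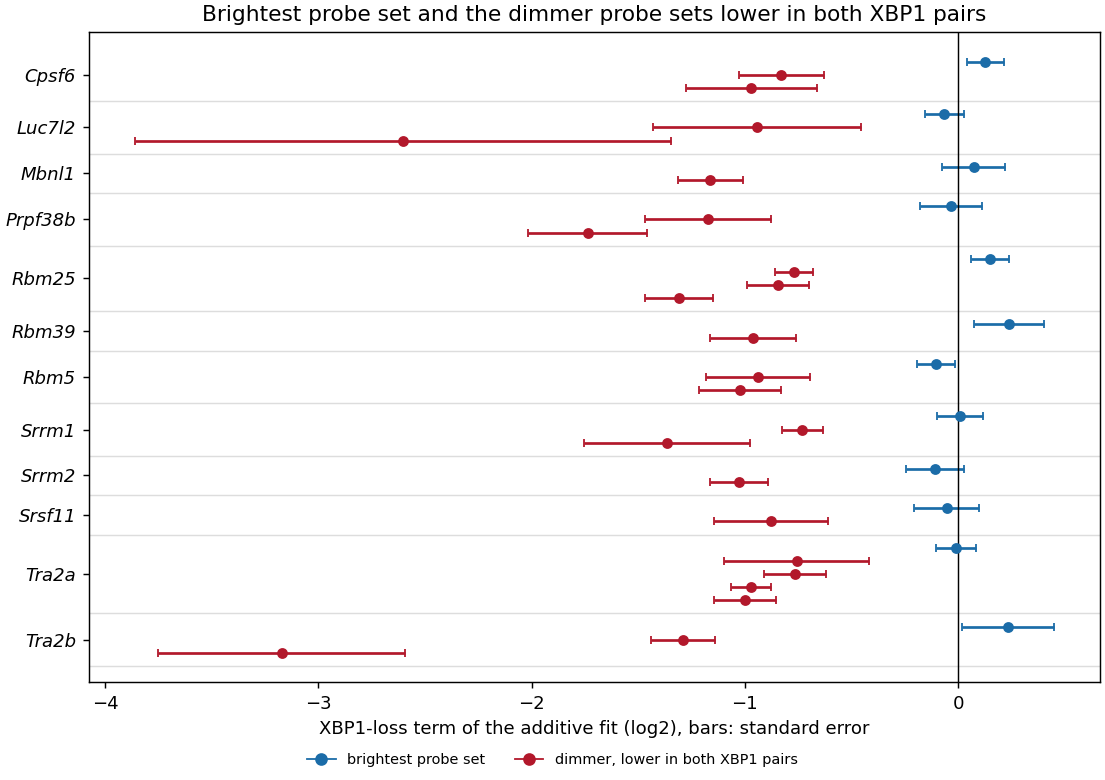
XBP1-loss term of the additive fit (log2, bars are standard errors from limma) for the brightest probe set (blue) and for the dimmer probe sets lower in both XBP1 pairs (red) of 12 genes. Red points were chosen for lying low; the blue points of the same genes lie near 0.

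Other genes of RNA processing were read from lists chosen by function. On brightest probe sets, none of the 28 measured genes of the U1, U2 and Sm ribonucleoproteins was past 1.5-fold in XBP1 null against wild type chondrocytes, and 1 was higher and 1 lower in double mutant against Matn3 mutant. Of all genes 23.3% were higher and 11.5% lower in the first pair and 17.4% and 9.03% in the second, so these shares lay under the background. Sf3b4, a subunit of the U2 particle, had signals of 738, 1396, 971 and 1497, Snrnp40 had 812, 1285, 950.0 and 1259 and Snrnp25 had 413, 225, 331 and 393. Matn3 mutant was the lowest array for Snrnp25 and the 2 Matn3 mutant arrays were the highest for the others. Of 28 PRP and helicase genes, 2 were higher and none lower with XBP1 loss on the wild type background, and 1 and 1 on the mutant one, likewise under these shares. Prpf31, a tri-snRNP protein, had 239.8, 133, 255 and 221, Prpf18 had 194, 220.4, 317 and 238 and Ddx23 had 213, 193, 151 and 115. Ddx23 was lowest in double mutant chondrocytes.

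Of 9 SR protein kinases 2 were higher in XBP1 null than in wild type chondrocytes, a share near the 23.3% of all genes, and none was past 1.5-fold in double mutant against Matn3 mutant. They were Dyrk1a, with 501, 681, 767 and 837, and the muscle kinase Srpk3, with 34.3, 36.7, 59 and 41.1, whereas Prpf4b was highest in Matn3 mutant chondrocytes at 1034, 1573, 1298 and 1312. Of 18 cleavage and polyadenylation genes 3 were higher and none lower in XBP1 null against wild type, 4 higher and none lower in Matn3 mutant against wild type, and none past 1.5-fold in double mutant against Matn3 mutant. The higher calls were no larger a share than the 23.3% of all genes in the first comparison and near the 21.2% in the second. Rbbp6 had 388, 1011, 717 and 968, Clp1 had 207, 423, 464 and 412 and Pcf11 had 682, 1263, 1131 and 1271. All 3 were lowest in wild type. Of 38 other splicing regulators 6 were higher and 2 lower in XBP1 null against wild type, both shares under the 23.3% and 11.5% of all genes. Celf2 had 68.5, 127, 208 and 131 and Raly had 254, 369.9, 593 and 390.3, both highest in XBP1 null, and Khdrbs3 had 114, 58, 176 and 119.6.

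Dimmer probe sets lower in both XBP1 pairs numbered 2 of 44 for the ribonucleoproteins, 2 of 44 for the PRP and helicase genes, 1 of 17 for the kinases, 1 of 35 for cleavage and polyadenylation and 6 of 114 for the other regulators, against the 5.77% of all dimmer probe sets. Nuclear long noncoding RNAs, which stay in the nucleus, held 9 of 38. Rian had brightest signals of 2936, 1882, 1310.4 and 1140.5 and Airn of 1601, 731, 1191 and 787, both highest in wild type, and Kcnq1ot1 had 1252, 909.6, 1138 and 719.6. Median log2 differences of the dimmer probe sets of these noncoding RNAs were -0.34 and -0.44 in the 2 XBP1 pairs, beside the -0.39 and -0.47 of the SR-related and speckle genes. Both sets hold genes that the publication had already listed from these arrays as lower on XBP1 removal. Among the noncoding RNAs these are Rian and Kcnq1ot1. In the 2 Matn3 pairs the noncoding medians were -0.17 and -0.24. There 12 and 10 of 38 were lower, against 21.2% and 20% of all dimmer probe sets. In the XBP1 pairs the noncoding RNAs moved the same way as the SR-related and speckle probe sets. The part of nuclear RNA content or RNA quality in the result was not tested.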

How the data were processed

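Chondrocyte RNA of 4 genotypes was hybridised to 1 Affymetrix Mouse430 2.0 array each. The authors deposited a linear signal intensity for each of 45037 probe sets; the summarization and normalization behind them, not given in the sources used here, could shift levels, and the study's own test needs probe-level errors and was not applied. Array medians differed by under 1%, so no further scaling was used. Genes were named from the platform annotation: 34945 probe sets name 1 gene. Signals under 1 were set to 1 and log2 differences were taken between arrays, with 1.5-fold as the threshold. With 1 array per genotype no pairwise difference was tested. The additive model used limma 3.58.1 in R 4.3.3 (trend, Benjamini-Hochberg over all probe sets). It was also run on simulated data in which all probe sets shared 1 error spread. Real probe sets need not share it, so that run does not show how the fit behaves on these data. The alternatives tried are given in the closing section. Array number limits the precision. Genes named in the text are those of the rule's own list, the 2 most different per role and comparison, the 8 with the widest gap between probe sets, the 5 of highest signal, up to 3 per other list, and those past 1.5-fold in both of 2 pairs; Hnrnpab, Hnrnpf, Hnrnpu, Rbm5, Rbm12, Rbm34, Srsf2, Srsf6, Srsf11 and the genes with a promoter match were added after their values were seen. The members and lists were chosen with earlier results of these data known.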

Additional observations from a re-analysis of the deposited data

Results flagged for a closer look

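Probe sets were looked at again where the Matn3 mutation went with opposite differences, past 1.5-fold each, with Xbp1 intact and with Xbp1 deleted, at or above the median signal; these 2 pairs share no array. The difference between the 2 effects was not tested, since each is read from 1 array a genotype. For Rbm27 (1456058_at) the log2 difference was 0.69 in Matn3 mutant against wild type and -0.77 in double mutant against XBP1 null chondrocytes. Rbm34 (1436595_at, a dimmer probe set) gave signals of 182 in wild type and 352 in Matn3 mutant chondrocytes against 427 in XBP1 null and 275 in double mutant ones, which gives 0.95 and -0.63. XBP1 null was the highest array for both. In the same pairs 1458748_at, a dimmer probe set of Rbm27, was 1.13-fold higher and 1.36-fold lower, neither past 1.5-fold.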

How the results depend on the processing

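No paired analysis was possible because each genotype has 1 array, and for the same reason no array could be left out. Of 198 counts recomputed under an alternative, 142 stayed within 1.5 times the value in the report, among them every count under median centring; counts of both pairs or of separated arrays over dimmer probe sets, and of separated arrays over genes, were chosen after seeing the data, as was leaving out the genes listed in the publication. Quantile normalization gave 3 genes higher in XBP1 null against wild type and 3 lower in double mutant against Matn3 mutant, and both XBP1 null arrays then lay above both others for 3 genes and 8 dimmer probe sets and below for 16 genes. A floor at the 25th percentile left 1 gene lower in XBP1 null against wild type. Only at or above the median signal, genes lower numbered 0 in XBP1 null against wild type and 0 in double mutant against Matn3 mutant, 1 was higher in double mutant against XBP1 null, and genes lower in both XBP1 pairs and higher in both Matn3 pairs numbered 0 each. Dimmer probe sets then numbered 17 higher in Matn3 mutant and 14 higher in XBP1 null against wild type, 0 higher and 25 lower in double mutant against Matn3 mutant, 6 higher and 8 lower in double mutant against XBP1 null, and 0 higher in both XBP1 pairs. With the median over all probe sets of a gene, 4 genes were lower in Matn3 mutant and 9 in XBP1 null against wild type, 2 were higher and 8 lower in double mutant against Matn3 mutant, 5 were lower in double mutant against XBP1 null, 5 were lower in both XBP1 pairs, 0 higher and 1 lower in both Matn3 pairs, and both XBP1 null arrays lay below both others for 18. Without probe sets of shared sequence (_s_at, _x_at) 2 genes were higher in both Matn3 pairs. At 2-fold, genes numbered 2 higher and 0 lower in Matn3 mutant and 2 higher and 0 lower in XBP1 null against wild type, 0 lower in double mutant against Matn3 mutant, 0 higher and 0 lower in double mutant against XBP1 null, and 0 in both pairs of either kind. Dimmer probe sets at 2-fold numbered 14 higher and 6 lower in Matn3 mutant and 8 higher and 12 lower in XBP1 null against wild type, 18 lower in double mutant against Matn3 mutant, 4 higher and 6 lower in double mutant against XBP1 null, and 7 lower in both XBP1 pairs. Without the 8 genes listed in the publication, dimmer probe sets lower numbered 7 in Matn3 mutant and 14 in XBP1 null chondrocytes, each against wild type, and in double mutant chondrocytes 18 against Matn3 mutant and 7 against XBP1 null, 6 were lower in both XBP1 pairs, and both XBP1 null arrays lay below both others for 31. With Srrm1 kept, so without 7 genes, those numbers were 7, 16, 21, 7, 8 and 34 in the same order. They are out of 135 dimmer probe sets without the 8 genes and 141 without the 7. The additive fit by limma called 0 member probe sets for either term under each alternative run, with 20 to 27 at an unadjusted p under 0.05 for XBP1 loss and 13 to 17 for the Matn3 mutation. Dim probe sets limit these counts: 5 of the 23 lower in both XBP1 pairs lay under the median signal. Beyond the alternatives' own construction, the cause of these changes was not tested.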
